A study of Drosophila melanogaster with 2 samples.

Results

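The genes described here are 10 members of the Polycomb and trithorax groups of Drosophila melanogaster. They are ph-p, ph-d, Pc and Psc of Polycomb repressive complex 1, E(z), esc and Su(z)12 of Polycomb repressive complex 2, and trx, brm and tara of the trithorax group. They were chosen by name, not by a measured value, but with earlier results of these data known. They make up 10 of the 13945 protein-coding genes on the chromosome arms X, 2L, 2R, 3L, 3R and 4. For each gene, all peak summits in the gene body or within 2 kb on either side were collected. The data are chromatin immunoprecipitation and sequencing (ChIP-seq) of CG43689, an uncharacterized protein, in whole embryos aged 8 to 24 h. The embryos came from a strain whose transgene encodes CG43689 joined to eGFP, a green fluorescent protein, and an antibody to GFP was used for the precipitation per the description in the labels, while another label names CG43689 as the antibody. The age is that of the source name, and a separate age field in the labels disagrees with it. The 2 samples are biological replicates of this 1 group, no second condition was compared, and no control library was analysed here. Whole embryos mix all cell types, so binding in few cells and weak binding in many cannot be told apart. Whether the strain still made untagged CG43689 is not given in the sources used here.

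Polycomb group proteins keep developmental genes such as the Hox genes silent, and trithorax group proteins keep them active. Polycomb repressive complex 2 methylates lysine 27 of histone H3, and complex 1 binds that mark through the chromodomain of Pc and compacts chromatin. The trithorax group includes a histone methyltransferase, trx, and the ATPase of a nucleosome remodelling complex, brm. Many of these genes were found through mutations that transform the identity of body segments of the fly.

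Peaks were deposited as lists on the dm6 assembly. The main list, from calls on the pooled replicates, holds 2088 peaks, and the ranked list that contains all of them holds 151546 candidates. A conservative list holds 2048 peaks, and the lists of replicate 1 and replicate 2 alone hold 1253 and 1265. Each peak has the authors' signal value, which differs for the same summit between the pooled calls and each replicate and is compared here only within a list, and a score that reaches 1000. No peak of the main list scored under 830. Rank 1 is the peak with the highest signal in its list. Distances are given from the nearest annotated start site of the named gene, and positions count from 1.

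Main summits lay in the window of 7 of the 10 genes, namely ph-p, ph-d, Pc, Psc, E(z), trx and brm, and there were 9 of them. The remaining 3 genes, esc, Su(z)12 and tara, had none. The share of 70% (Wilson 95% interval 39.7 to 89.2) stands beside 18.4% of all protein-coding genes. Long genes hold more summits, and among genes that span 10 kb or more 35.6% had a main summit, against 5 of the 6 members of that length. Counting only summits within 500 bp of a start site of the gene, 3 of the 10 had one, ph-p, brm and E(z) (30%, interval 10.8 to 60.3), beside 8.36% of all protein-coding genes. The conservative list gave the same 7 genes (background 17.9%), as did the replicate 2 list (12.2%). The replicate 1 list gave 5, without ph-d and Psc (13.1%). With the gene body alone as the window 4 genes had a main summit, ph-p, Psc, E(z) and trx (background 6.93%), and with peaks found in both replicate lists alone 4 had one, ph-p, Pc, E(z) and brm (9.34%). Main peaks at or above the median signal gave 6 genes (11.1%), and counting any base of a peak gave 7 (18.9%). Within 250 bp of a start site 2 genes had a summit (6.38%), and within 1000 bp 4 (10.3%). No test was run on these counts, because the genes were chosen with earlier results of these data known.

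**Figure D1:**
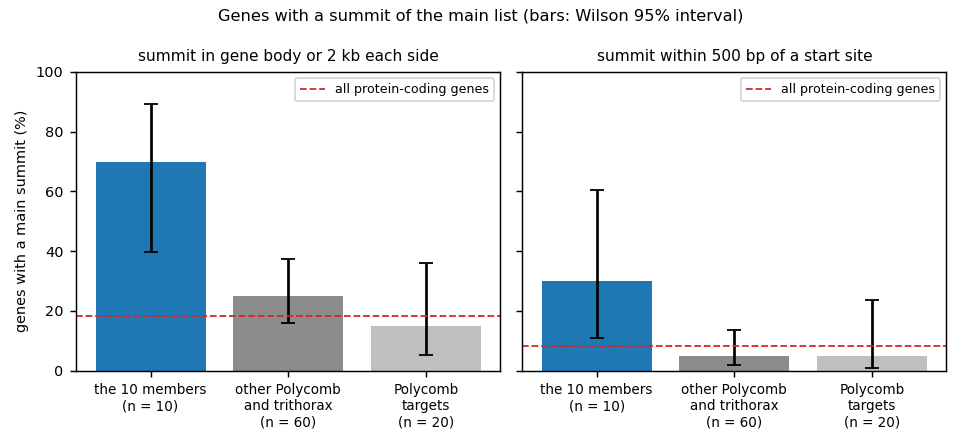
Percentage of genes with a summit of the main list for the 10 members, the 60 other Polycomb and trithorax genes and 20 Polycomb target genes. The Wilson 95% intervals treat the named genes as independent draws and hold no error of the reads. The dashed line is the share of all protein-coding genes, 18.4% on the left and 8.36% on the right, and the bars of the 10 members are at 70% and 30%.

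The ranked candidates in the 10 windows numbered 188. Their density ran from 0.441 per kb at Pc to 1.43 per kb at brm, beside 1.11 per kb over the arms. Their median signal was 21.2, beside 18.7 over the arms. Of the 188, 9 (4.79%) were in the main list, beside 1.39% of the ranked candidates on the arms.

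**Figure D2:**
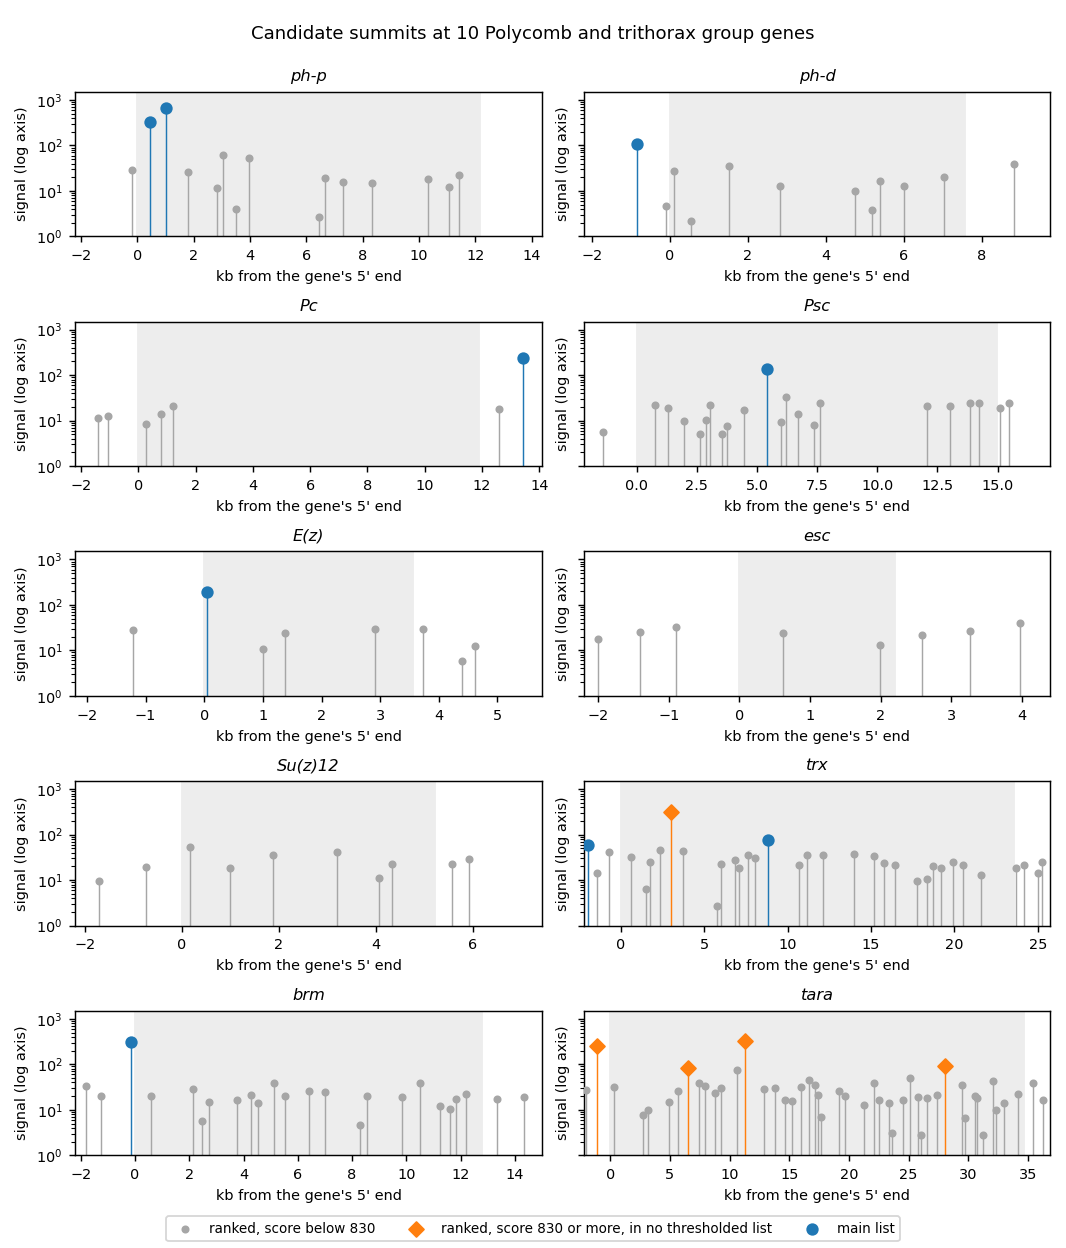
Signal of every ranked candidate (vertical, log axis) against its distance in kb from the 5′ end of the gene (horizontal, grey shading marks the gene body) for the 10 genes. Blue circles are the 9 main summits and orange diamonds are 5 candidates with a score of at least 830 that no thresholded list holds, 4 at tara and 1 at trx.

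The strongest peaks of the set were both at ph-p. This gene (FBgn0004861, X:2126210-2138371, minus strand) and ph-d encode the Polyhomeotic proteins, SAM domain subunits of Polycomb repressive complex 1 that form polymers. The strongest main peak (X:2137248-2137467) had signal 681 and rank 9 in the main list. In the replicates' own lists its signal was 307 (rank 10) and 371 (rank 9), so it was among the strongest peaks of each. Its summit lay in an intron, 1010 bp inside the 5′ end of the gene and 506 bp upstream of an internal start site. The next peak (X:2137852-2137934) had signal 332 and rank 81, with 146 (rank 105) in replicate 1 and 186 (rank 64) in replicate 2. Its summit lay 460 bp downstream of the outermost start site, in the 5′ UTR. The DNA at these summits is shown because they are the strongest of the 10 genes. These and the later stretches are read on the forward strand of dm6 from the RefSeq genome, and capitals mark matches, on either strand, to the 8 motifs searched, such as AAATAT. The first is 101 bases centred on the summit, and the second is cut to 29 bases because it lies in a UTR.
ph-p intron summit, X:2137311-2137411: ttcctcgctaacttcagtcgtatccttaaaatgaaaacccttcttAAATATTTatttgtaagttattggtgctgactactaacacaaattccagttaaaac
ph-p 5′ UTR summit, X:2137897-2137925: gtaaaatgaaaacgtttagtaaaatagaa
Of the 101 bases at the intron summit 68.3% are A or T, and of the 29 bases at the other 79.3%. The conservative list held 2 more summits at ph-p, with signals 61.1 and 11.9, at 1287 and 1082 bp downstream of a start site. The main list lacked both.

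The tandem copy ph-d (FBgn0004860, X:2115727-2123286, minus strand) lies 2923 bp from ph-p, and the windows of the pair overlap. It had 1 main peak (X:2123980-2124279; signal 107, rank 739), whose summit was 844 bp upstream of its start site, between the copies and 2080 bp beyond the 3′ end of ph-p. Replicate 2 held it with signal 64.4 (rank 589). The replicate 1 list did not. In the ranked list of replicate 1 the candidate there had signal 43.3, rank 1154 and score 826, beside a lowest score of 830 in that replicate's list. At the start sites of ph-d themselves the best ranked candidate had signal 34.6 and rank 16533. A peak of signal 2.40 in the replicate 2 list, 1025 bp upstream of ph-d, fell in the windows of both copies.
ph-d upstream summit, X:2124080-2124180: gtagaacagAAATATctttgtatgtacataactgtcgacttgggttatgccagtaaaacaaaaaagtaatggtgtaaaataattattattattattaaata
The DNA around these summits had only short or partial matches to the searched DNA of the other copy. The best-scoring local alignment of 301 bases around each ph-p summit to ph-d spanned 15 and 22 bases. The DNA upstream of ph-d was not part of that search. That around the ph-d summit spanned 73 bases at 75.3% identity and did not reach the summit. Every run of 36 bases within 50 bp of the 3 summits occurs once on the arms, so runs of that length can be placed at 1 copy. The read length is not given in the sources used here.

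The 1 main peak counted for Pc lies past the gene. Pc (FBgn0003042, 3L:21306138-21318020, minus strand) encodes the chromodomain subunit that reads trimethylated lysine 27 of histone H3. The peak (3L:21304440-21304739) had signal 237 and rank 168, with 116 (rank 168) in replicate 1 and 120.4 (rank 188) in replicate 2. The summit was at the same base in both replicates. It was 13430 bp from the start site of Pc and 1548 bp past its 3′ end. It lay at the promoters of the divergent genes CG11309 and CG7632, 68 bp downstream of the start site of the former and 107 bp upstream of that of the latter. At the start site of Pc the best ranked candidate had signal 8.54 and rank 127802 of 151546. The gene itself therefore had a summit through its neighbours alone, and with the gene body as the window it had none. The 29 bases at the summit are shown because this summit, like those of E(z) and brm, lay at a pair of divergent promoters.
CG11309 and CG7632 summit, 3L:21304576-21304604: gatttcataaataaatgatgacaactaac

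Psc (FBgn0005624, 2R:12965997-12980994, minus strand), a ring finger subunit of Polycomb repressive complex 1, had 1 main peak (2R:12975429-12975728). Its signal was 133 and its rank 487, and the summit lay in an intron 5079 bp downstream of the start site. It was in the replicate 2 list at signal 82.7 (rank 352) and not in the replicate 1 list, where the ranked candidate had signal 43.9, rank 1122 and score 619. At the start sites of Psc the best ranked candidate had signal 22.6 and rank 55524. A further main peak, named after its value was seen, lay outside the window, 4212 bp upstream of Psc (2R:12985093-12985307; signal 499.8, rank 29). Psc had the nearest protein-coding start site to it.

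The esc and Su(z)12 genes had no peak in any thresholded list. The gene esc (FBgn0000588, 2L:11827204-11829405, minus strand) encodes a WD repeat subunit that binds the methylated histone tail. The best of its 8 ranked candidates had signal 39.2, rank 10012 and score 331, and none lay within 500 bp of its start site. The nearest main summit was 10647 bp beyond the gene. Su(z)12 (FBgn0020887, 3L:19918242-19923462, minus strand) encodes the zinc finger subunit needed for catalysis. The best of its 10 candidates lay at the promoter, 161 bp downstream of the start site, with signal 54.9, rank 2689 and score 712, under the lowest score of the main list. The nearest main summit was 98349 bp away.

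Of the 3 genes of Polycomb repressive complex 2, E(z) alone had a main peak. It (FBgn0000629, 3L:10634575-10638130, minus strand) encodes the methyltransferase of the complex. Its peak (3L:10637926-10638225) had signal 193 and rank 250, with 101 (rank 223) in replicate 1 and 86.7 (rank 312) in replicate 2. The summit lay 54 bp downstream of the start site of E(z), in its 5′ UTR, and 70 bp upstream of that of Cnep1r2, the divergent neighbour. The peak was therefore shared by 2 promoters and cannot be given to either.
E(z) and Cnep1r2 summit, 3L:10638062-10638090: attttgtactgaaagtaggaaataaacaa

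Among the trithorax genes, brm had the strongest main peak. It (FBgn0000212, 3L:15970082-15982869, minus strand) encodes the ATPase of the Brahma remodelling complex, the fly SWI/SNF complex. The peak (3L:15982982-15983080) had signal 316 and rank 89, with 140.5 (rank 114) in replicate 1 and 177 (rank 73) in replicate 2. Its summit was 137 bp upstream of brm and 129 bp upstream of the divergent gene Arl1, which encodes a small GTPase of the Golgi. The summit thus lay near the middle of the shared promoter. The other 23 candidates in the brm window were weak, the best of them with signal 39.1 and rank 10091.
brm and Arl1 summit, 3L:15982956-15983056: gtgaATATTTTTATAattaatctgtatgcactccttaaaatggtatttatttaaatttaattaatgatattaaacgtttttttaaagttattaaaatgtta
Of these 101 bases 84.2% are A or T, the highest share among the 9 main summits.

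The trx gene (FBgn0003862, 3R:14263358-14286903, minus strand) encodes a methyltransferase for lysine 4 of histone H3. Its main peaks were the weakest of the 10 genes. One (signal 75.9, rank 1326) lay in an intron 8829 bp downstream of the start site. It was in the replicate 2 list at signal 39.5 (rank 1203) but not in the replicate 1 list, where the ranked candidate had signal 38.6 and score 794. The other (3R:14288696-14288995; signal 58.8, rank 1872) lay 1943 bp upstream of trx and 225 bp upstream of red, a neighbouring gene on the opposite strand, with the start site of the non-coding RNA gene lncRNA:CR45596 617 bp from it. It was in the replicate 1 list at signal 46.4 (rank 957). In replicate 2 the candidate there had signal 21.3, rank 13457 and score 38, so this summit rested on replicate 1. The conservative list did not hold it.

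At tara and trx the ranked list held strong candidates that the main list lacked. The gene tara (FBgn0040071, 3R:16225651-16260329, plus strand), which encodes a protein of the SERTA domain family, had no peak in any thresholded list. Yet its best ranked candidate (3R:16236914-16237018) had signal 321 and rank 92, with 163 (rank 89) and 153 (rank 111) in the ranked lists of replicates 1 and 2. It lay in an intron, 5845 bp upstream of an internal start site. Another (3R:16224369-16224668; signal 249, rank 161) lay 1132 bp upstream of the gene, with replicate signals of 103 (rank 222) and 137 (rank 141). At trx a candidate in an intron (3R:14283877-14283954; signal 309.7, rank 97), 3025 bp downstream of the start site, had replicate signals of 123 (rank 153) and 184 (rank 71). These 3 had a score of 1000 in the pooled ranked list and in the ranked list of each replicate. A pair at tara was weaker. The one 10872 bp downstream of a start site had signal 91.1, with 51.5 and 42.4 in the replicates. The one 6547 bp downstream had 81.9, with 19.2 (rank 15735) in replicate 1 and 63.1 (rank 633) in replicate 2.
tara intron candidate, 3R:16236921-16237021: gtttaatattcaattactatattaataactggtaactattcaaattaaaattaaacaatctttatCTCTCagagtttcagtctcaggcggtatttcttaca
tara upstream candidate, 3R:16224469-16224569: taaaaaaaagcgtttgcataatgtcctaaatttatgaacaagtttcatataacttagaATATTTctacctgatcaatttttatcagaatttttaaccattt
trx intron candidate, 3R:14283828-14283928: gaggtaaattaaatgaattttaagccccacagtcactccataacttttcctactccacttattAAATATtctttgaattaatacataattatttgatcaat
A main peak outside the window, named after its value was seen, lay 3158 bp upstream of tara (3R:16222397-16222599; signal 557, rank 21), and with 5 kb on each side as the window tara joined the 7 genes, beside 27.4% of all protein-coding genes. In the whole ranked list 2176 candidates had a score of at least 830, of which 88 (4.04%) were not in the main list, and 86 of the 88 overlapped no peak of any thresholded list. Of the 88, 34 (38.6%) lay on 3R, the arm of both genes, and the 34 include the 5 candidates at tara and trx. The arm held 22.9% of the main peaks and 24.9% of the ranked candidates. With every candidate of that score counted, 8 of the 10 genes had a summit, beside 18.7% of all protein-coding genes. Per the deposited file descriptions, the thresholded lists were made with an input file that the ranked lists did not use. What that file holds is not given in the sources used here, and its part in the missing candidates was not tested.

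**Figure D3:**
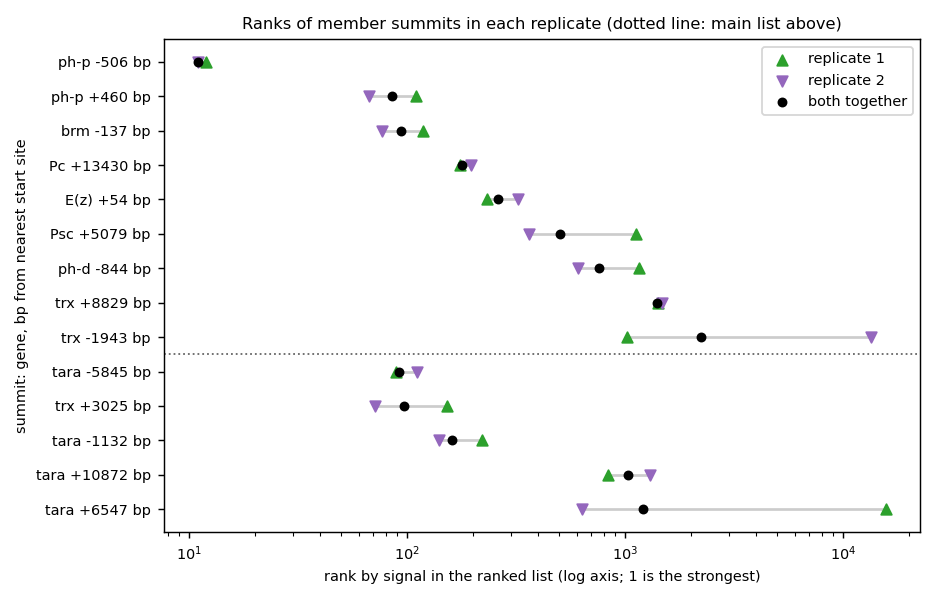
Rank by signal (horizontal, log axis) of the 9 main summits (above the dotted line) and the 5 candidates missing from the thresholded lists (below it) in the ranked lists of replicate 1, replicate 2 and both together. The ph-p summit in the intron ranks 12, 11 and 11, and the widest gaps are at the trx summit near red (1026 and 13457) and at the tara candidate 6547 bp downstream of a start site (15735 and 633).

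In the ranked lists of replicates 1 and 2 the ranks of the main summits were close for some and far apart for others. They were 12 and 11 at the ph-p intron summit, 110 and 67 at the ph-p 5′ UTR summit, and 1423 and 1485 at the trx intron summit, one of the weakest. Of the 9 main summits, 5 overlapped a thresholded peak of both replicates, namely the pair at ph-p and those counted for brm, Pc and E(z). These were also the 5 with the highest signal. The share of all main peaks that overlap both lists was not counted, so 5 of 9 cannot be called high or low. The other 4 were each in the list of 1 replicate, with Psc, ph-d and the trx intron in replicate 2 and the trx summit near red in replicate 1.

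The summits were AT-rich. Within 50 bp of the 9 main summits the median G and C content was 27.7%, from 15.8% at brm to 38.6% at the trx summit near red. In windows as wide centred 400 bp away, on both sides, the median was 47.5%, and the content was lower at the summit than in its flanks at all 9. Main summits as a whole dipped too. Their mean content in windows of 51 bp was 34.75% at the summit, 44% at 400 bp to the left and 43.2% at 400 bp to the right. Over all main summits the median was 32.7% (quartiles 26.7 and 41.6), and over the other ranked candidates 46.5%. The 9 therefore lay within the range of main summits. The 5 candidates missing from the thresholded lists had a median of 26.7%, from 22.8 to 37.6%.

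**Figure D4:**
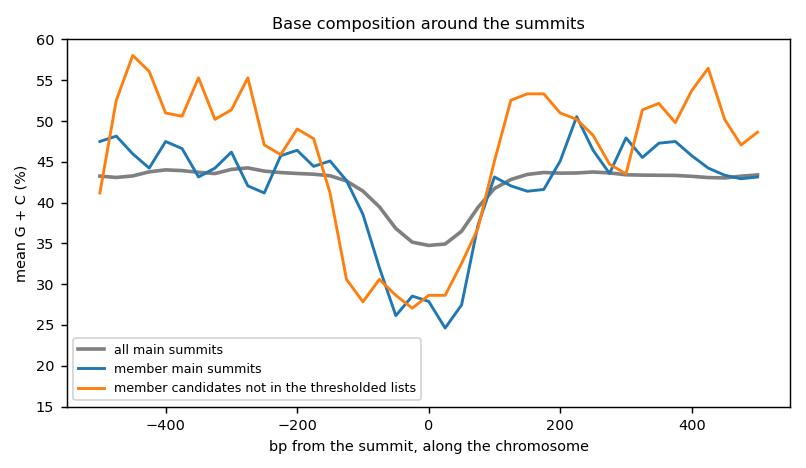
Mean G and C content in windows of 51 bp (vertical, percent) against the distance from the summit (horizontal, bp) for the 9 main summits, the 5 candidates missing from the thresholded lists and all 2062 main summits on the arms. All 3 lines dip at the summit.

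The 8 motifs, AAATAT among them, were chosen with earlier results of these data known. Searched on both strands within 50 bp of the summits, 3 of them had a match at a main summit of the 10 genes. The word AAATAT lay at 5 of the 9 summits, beside 32.7% of all main summits and 12.5% of the other ranked candidates. The TATA box core TATAAA lay at 3, in ph-p, brm and the trx intron, beside 21.5% and 7.94%. The match at brm overlaps one to AAATAT. The Zeste core TGAGTG lay at the trx summit near red, beside 3.54% and 5.12%. No match was found for GAGAG, the core bound by the GAGA factor (9.31% of all main summits and 12.2% of other candidates), or for GCCAT, the core bound by Pho, the DNA-binding protein of Polycomb response elements (14.2% and 23.1%). The same held for the replication-related element TATCGATA (1.12% and 0.194%), for GGTCACAC, the core of the M1BP motif (0.534% and 0.189%), and for a CTCF core, CCA, AG and GGC with any 2 bases in each gap (0.146% and 0.420%). At the 5 missing candidates, AAATAT matched at 3. GAGAG matched at the tara intron summit and GCCAT at the tara summit 10872 bp downstream of a start site. Of all words of 6 letters, counted after the data were seen, AAATAA and AATAAA were at the most main summits of the 10 genes, 6 of 9 each, beside 32.8% and 28.5% of all main summits and 14% and 14.7% of other candidates.

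The 3 genes with a summit at a start site stood among unrelated genes in signal. The nearest promoter peaks to that of ph-p (332) were at CG11357 (335) and CG31145 (332). Those next to brm (316) were at E23 (317), an ecdysone transporter gene, and MFS18 (304). Those next to E(z) (193) were a peak shared by Atg2 and CG12093 (194), the former an autophagy gene, and one at RapGAP1 (189). Likeness here is closeness of rank in the main list alone.

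Of 62 further symbols of the Polycomb and trithorax groups, 60 matched the annotation. Of these, 3 (5%, Wilson 95% interval 1.72 to 13.7) had a main summit within 500 bp of a start site, beside 8.36% of all protein-coding genes. They were Trl, which encodes the GAGA factor (signal 167, 105 bp downstream), skd, a subunit of the Mediator kinase module (91.3, 374 bp upstream), and Rbbp5, a subunit of histone H3 lysine 4 methyltransferase complexes (80.5, 341 bp upstream). The skd summit was nearer to Pdss2 (107 bp upstream) and the Rbbp5 summit nearer to eRF1 (72 bp upstream). The Rbbp5 peak was missing from the thresholded list of at least 1 replicate. In the gene body or 2 kb on each side, 15 of the 60 (25%, interval 15.8 to 37.2) had a main summit, beside 18.4% of all protein-coding genes.

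Of 20 genes known as targets of Polycomb repression, 3 (15%, interval 5.24 to 36) had a main summit in the gene body or 2 kb on each side. They were the Hox gene Antp with 2 summits (signals 71.3 and 66.9), the Hox gene Abd-B (70.4) and Dll, a limb selector gene (109.8, 53 bp upstream of a start site). Dll alone had a peak in both replicate lists. The share was near the 18.4% of all protein-coding genes. The tagged gene CG43689 itself had no main summit in its window, and the best of its 30 ranked candidates had signal 50.8 and rank 3454.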

How the data were processed

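ChIP-seq peaks of CG43689-eGFP in 2 replicates of whole embryos were analysed. Sonicated fragments spanned 200 to 800 bp, per the labels. The authors deposited 8 peak lists on dm6, not reads; each peak has a signal value and a score of up to 1000, both from the authors' processing. Peaks were thresholded by the irreproducible discovery rate, which scores how well the ranks of 2 sets of peaks match, per the deposited file descriptions. No aligner or peak caller is named in the labels or file descriptions used here. The depth per library is unknown. The Wilson intervals treat the listed genes as independent draws, although they were chosen by name, and hold no error of the reads.

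The ranked list that holds every main peak was the background. Summits were set against Ensembl 115 gene models, whose coordinates are those of dm6, without pseudogenes and transposons. Sequences came from the RefSeq release 6 genome. Lists overlapped from a shared 1 bp. The members, lists and motifs were chosen with earlier results of these data known, and no significance test was run. Named were all members, the further Polycomb and trithorax genes with a summit at a start site, the target genes with a summit in their window, neighbours within 1000 bp of a main summit, and the genes next in signal. The symbols urd and lid matched no protein-coding gene and were left out. Window assignment was tested on simulated data. Python 3.11.15, pandas 2.3.3, scipy 1.17.1 and Biopython 1.88 were used. Alternatives were other lists, windows, overlaps and signal limits. Sequences are printed for some of the summits, and others, the trx intron main summit among them, are not reported here.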

Additional observations from a re-analysis of the deposited data

How the results depend on the processing

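The count of members with a main summit in their window (7) was 5 to 7 when either replicate was left out, 4 with main peaks of both replicate lists (ph-p, Pc, E(z) and brm), 4 with the gene body alone (ph-p, Psc, E(z) and trx), and 6 to 8 under the other alternatives. The count at start sites (3) was 3 without either replicate, 2 within 250 bp and 4 within 1000 bp, and 3 otherwise. For the other Polycomb and trithorax genes (3 at a start site) it was 2 to 3 without either replicate. It was 1 within 250 bp, beside 6.38% of all protein-coding genes, and 2 to 4 otherwise. For the target genes (3) it was 2 without replicate 1, beside 12.2% of all protein-coding genes, and 2 without replicate 2, beside 13.1%. It was 1 at or above the median signal (11.1%), 1 in peaks of both replicate lists (9.34%), and 2 to 4 otherwise. The background thus also fell from 18.4%. Both definitions of overlap left 5 member summits in both replicates. The median of the 9 member summits stood in the top 12% of the main list. In the replicate 1 list the median was the top 11.2%, over the 6 summits found there. In the replicate 2 list it was the top 19.8%, over the 8 found there. Summits missing from a list are not in its median, so these values cover unlike sets. The median of all 9 stood in the top 0.200% and 0.267% of the ranked lists of replicates 1 and 2, which are far longer. Median G and C content (27.7%) was 25.5% within 25 bp and 30.8% within 100 bp. Main summits of members with any motif match (7 of 9 within 50 bp) numbered 3 within 25 bp and 9 within 100 bp. The share with any match was not computed for all main summits or other ranked candidates. These counts therefore cannot be called particular to the members. Within 50 bp, AAATAT lay at 5 of the 9, beside 32.7% of all main summits, and TATAAA at 3, beside 21.5%. Counting ranked candidates of at least the lowest main score was added after the data were seen. No paired analysis was possible because the study has 1 group. The cause of these changes was not tested. Without read counts, weak summits cannot be given a counting error.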

Other observations

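Other genes of the Polycomb and trithorax groups had strong main summits in or near the gene but away from its start sites. These were picked after their values were seen. The Brahma complex gene osa, which encodes an ARID domain subunit, had 2 summits in its body with signals of 401 (rank 52) and 309.7 (rank 92), 13924 and 17772 bp downstream of a start site, and both peaks were in both replicate lists. Within Trl, summits of signal 444, 102 and 92.5 accompanied the one at its start site, and all were in both replicate lists. In kis, which encodes a chromodomain helicase, a summit of signal 144 lay 1601 bp upstream of a start site within the gene. A summit of signal 119.9 lay 681 bp upstream of nej, the gene of the histone acetyltransferase CBP.

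For other genes the summit in the window lay at a neighbour's promoter, as it did for Pc. The peak of signal 1036 (rank 2) in the window of ash1, a histone methyltransferase gene, was 105 bp upstream of CG14100. The peak of signal 633 (rank 14) in the window of Caf1-55, a histone chaperone gene, was 126 bp upstream of Art3. The peak of signal 345 (rank 71) in the window of phol, which encodes a relative of Pho, was 98 bp upstream of a start site of CG3552.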
